A study of Rattus norvegicus with 4 samples.

Results

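The genes described here are 10 markers of T cells and natural killer (NK) cells, the lymphocytes that recognise antigen through the T cell receptor or kill target cells directly. They are Cd3d, Cd3e, Cd3g, Cd4, Cd8a, Cd2, Lck, Nkg7, Gzmb and Prf1. They were chosen by symbol, and each of the 10 matched 1 row among the 24005 genes of the deposited count table. Of the 10, 9 had enough counts to be tested among 15282 genes, and Gzmb did not. Poly(A) RNA of cartilage was sequenced. All libraries are labelled as male rats of the outbred strain Sprague Dawley, 8 to 12 weeks old with a body weight of 140 to 230 g. The control group holds 2 libraries labelled healthy with the treatment label control. The osteoarthritis group holds 2 libraries labelled osteoarthritis with the treatment label XGS, which stands for the herbal preparation Xiaogu San. By the series' title and design text the disease was induced with monosodium iodoacetate, which blocks glycolysis and, in a joint, kills chondrocytes. No library is labelled as osteoarthritis without XGS, so disease and treatment cannot be told apart. The design text calls the normal animals mice, while all 4 libraries are labelled rat. The labels do not say that the libraries came from separate animals, so p-values measure only how these samples spread, and that spread may be technical. In bulk tissue, fewer cells of a type and less RNA per cell cannot be told apart.

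The T cell receptor signals through the CD3 chains gamma, delta and epsilon, encoded by Cd3g, Cd3d and Cd3e, and through the zeta chain, encoded by Cd247. CD4 and CD8 are coreceptors that bind MHC molecules and bring the kinase Lck to the receptor. In rats CD4 is also found on macrophages. CD2 is an adhesion receptor of T and NK cells. Cytotoxic T cells and NK cells store perforin (Prf1), which opens the membrane of a target cell, and granzymes such as Gzmb, the proteases that enter through it. NKG7 is a membrane protein of these granules. Cartilage itself has no blood vessels, whereas the marrow of the bone beneath it and the synovium around it hold lymphocytes.

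The libraries held 24492412 to 28270779 counts. Low counts differed in kind between the groups. Among genes with 10 to 99 counts, 66.5% and 65.7% had an even count in the control libraries, against 51.5% and 51.0% in the osteoarthritis libraries. In the controls 259 genes of replicate 1 and 199 of replicate 2 stood at 0 while the other replicate had at least 50 counts, and in osteoarthritis 10 and 40 genes did. Counting intervals and floors below cover counting error only, and the part of this difference in the levels of weakly expressed genes was not tested. Of chondrocyte markers, 9 of 10 were in the table and none of the 9 was at 0 in any library. Of the 9, 4 were below both controls in osteoarthritis, beside 26.5% of all genes tested, and 5 overlapped. The median log2 fold change of the 9 was -0.78. Levels are given as CPM, which is the count scaled to library size with edgeR's TMM factors. The osteoarthritis libraries differed widely in these markers. Replicate 1 exceeded replicate 2 for 2 of the 9. As replicate 1 over replicate 2, the middle value was -2.85 on the log2 scale, beside -0.03 for all genes. Acan had 70.9 CPM in replicate 1 and 2703 CPM in replicate 2. Col2a1 went the other way, with 3431 and 385 CPM. The part of this difference in the levels of other genes was not tested.

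Across the 10 genes, Nkg7 and Cd3g lay furthest below the controls in both osteoarthritis libraries. Lck, Cd2 and Cd3e were also below both controls, while Cd3d, Cd4, Cd8a and Prf1 overlapped between the groups. None passed the quasi-likelihood test of edgeR at an adjusted p of 0.05 (Benjamini-Hochberg, over all genes). That test called 0 of the 9 tested genes, as it called 0% of the 15282 genes lower and 0% higher. At an unadjusted p under 0.05 it had 2 of the 9 lower and 0 higher, beside 11.2% of all genes lower and 12.2% higher. DESeq2 called 2 of the 9 lower, Nkg7 and Cd3g, and 0 higher, beside 8.26% of all genes lower and 7.24% higher. EdgeR's likelihood ratio test also called these 2 lower and 0 higher, beside 6.4% and 6.31% of all genes. The quasi-likelihood test with no filter on low counts called 1 lower, Nkg7, and 0 higher, beside 3.72% and 3.35% of 20196 genes. Limma-voom called 0 of the 9, and 0 of all genes. The fitted log2 fold change was negative for 7 of the 9, beside 44.9% of all genes. Both osteoarthritis libraries were below both controls for 5 of the 9 tested genes, beside 26.5% of all genes, and above both for 0 of the 9, beside 30% of all genes. The median log2 fold change, osteoarthritis over control, was -1.31 for the 9 and 0.15 for all genes tested. The median of the 9 moved with single libraries, to -0.34 without control replicate 2, -2.05 without osteoarthritis replicate 1 and -0.84 without osteoarthritis replicate 2.

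**Figure D1:**
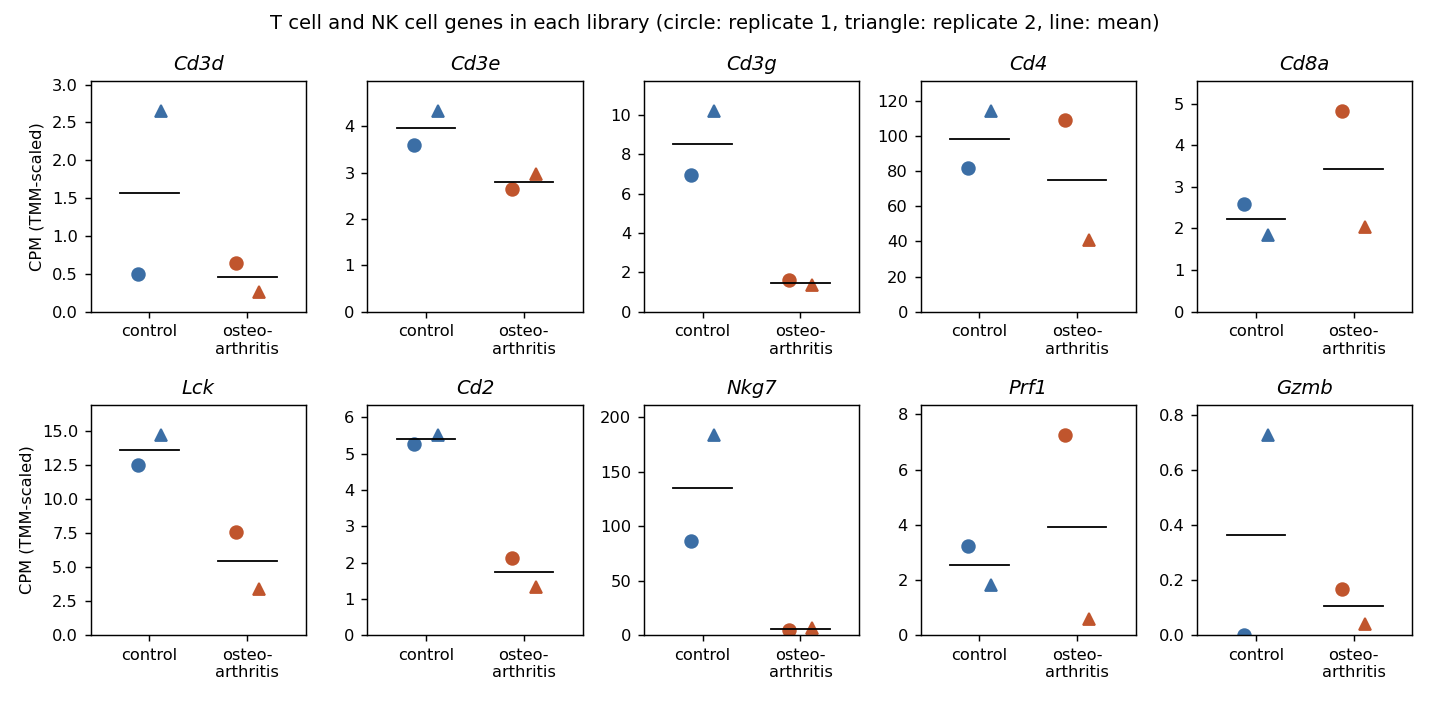
CPM of each of the 10 genes in the 4 libraries, each panel with its own linear axis from 0; circles are replicate 1, triangles replicate 2 and lines the group means. Nkg7, at 86.6 and 184 CPM in control, against 4.95 and 6.57 CPM in osteoarthritis, shows the widest separation of groups, and Prf1, at 7.26 and 0.605 CPM in osteoarthritis, a wide spread within a group.

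The 3 CD3 chains, which assemble into 1 receptor, differed in their values across the libraries. Their fitted intervals overlap, and a difference in change between the chains was not tested. Cd3g had 6.93 and 10.2 CPM in control, against 1.63 and 1.34 CPM in osteoarthritis. The groups did not overlap, and each pair of replicates lay close together. The log2 fold change of Cd3g was -2.52 ± 0.73 (SE, 95% interval -4.36 to -0.68; edgeR quasi-likelihood adjusted p = 0.146), a 5.74-fold lower level, with DESeq2 at an adjusted p of 0.0106 and edgeR's likelihood ratio test at 0.0424. Cd3e had 3.59 and 4.33 CPM in control, against 2.65 and 2.98 CPM in osteoarthritis. Both osteoarthritis values were lower by a small margin, with a fitted log2 fold change of -0.49 ± 0.82 (95% interval -2.57 to 1.58, edgeR quasi-likelihood adjusted p = 0.774). Cd3d had 0.493 and 2.65 CPM in control, against 0.644 and 0.259 CPM in osteoarthritis. Only control replicate 2 was high. Its 69 counts (95% Poisson interval 53.7 to 87.3) were beyond the counting error of the 14 in control replicate 1 (7.65 to 23.5), so the controls differed from each other by more than either differed from osteoarthritis replicate 1. The log2 fold change of Cd3d was -1.78 ± 1.56 (95% interval -5.73 to 2.16), and it was -0.11 without control replicate 2.

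Levels of different genes were compared as FPKM, which divides by gene length. The ratio of Cd3g to Cd3e was 3.89 and 4.73 in control, against 1.24 and 0.906 in osteoarthritis. Cd3g thus stood well above Cd3e in FPKM in both controls and near it in both osteoarthritis libraries. The ratio of Cd3d to Cd3e was 0.293 and 1.30 in control and 0.520 and 0.186 in osteoarthritis, with overlapping groups. Cd247, the zeta chain of the same receptor, had 0 counts in both controls and 44 and 21 counts in osteoarthritis. Against a floor of 3 counts in each control library, the observed mean of Cd247 in osteoarthritis was 10.9-fold higher. That bound covers counting error of the controls only, and not that of the osteoarthritis counts. Among the controls, 259 and 199 genes at 0 had at least 50 counts in the other replicate, and the part of such zeros was not tested.

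Of the coreceptors, Cd4 was the more abundant. Cd4 had 81.8 and 114 CPM in control, against 109 and 40.7 CPM in osteoarthritis. On this scale osteoarthritis replicate 1 lay between the controls and replicate 2 below both. In FPKM, which uses no TMM factors, replicate 1 was above both controls, at 43.6 against 27.5 and 35 FPKM. For Cd4 the log2 fold change was -0.39 ± 0.54 (95% interval -1.75 to 0.96, edgeR quasi-likelihood adjusted p = 0.715), and it was 0.16 without osteoarthritis replicate 2. Cd8a had 2.60 and 1.84 CPM in control, against 4.82 and 2.03 CPM in osteoarthritis, with only osteoarthritis replicate 1 above both controls. The fitted change of Cd8a was 0.62 ± 0.98 on the log2 scale (95% interval -1.85 to 3.10), and it was -0.16 without osteoarthritis replicate 1. In FPKM, Cd4 exceeded Cd8a by 18.6 and 36.6 times in control and by 13.3 and 11.9 times in osteoarthritis, and it exceeded Cd3e by 10.8 and 12.4 times in control and by 19.4 and 6.45 times in osteoarthritis. Macrophage and monocyte markers were present beside it: all 12 had counts in every library, and their summed level was 5665 and 7995 CPM in control, against 1089 and 1514 CPM in osteoarthritis. Most of that sum was Lyz2, a lysozyme of macrophages and granulocytes, and the other 11 summed to 959 and 1116 CPM in control and to 707 and 414 CPM in osteoarthritis. The part of macrophage RNA in the level of Cd4 was not tested.

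Lck and Cd2, which are used by T cells of both coreceptor classes, were lower in both osteoarthritis libraries. Lck had 12.5 and 14.7 CPM in control, against 7.56 and 3.37 CPM in osteoarthritis. The controls agreed closely and the osteoarthritis libraries did not, with replicate 2 the lowest. The log2 fold change of Lck was -1.31 ± 0.61 (95% interval -2.86 to 0.23, edgeR quasi-likelihood adjusted p = 0.273). In the RefSeq table of assembly GRCr8 the Lck gene overlaps a long noncoding RNA, and since the use of strand in counting is not given, reads of the pair cannot be told apart. Cd2 had 5.28 and 5.52 CPM in control, against 2.14 and 1.34 CPM in osteoarthritis, and a log2 fold change of -1.63 ± 0.84 (95% interval -3.75 to 0.49, edgeR quasi-likelihood adjusted p = 0.309). For both genes the groups were apart in every pair of libraries, and the intervals of the fitted changes include 0.

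The granule genes diverged most. Nkg7 had 86.6 and 184 CPM in control, against 4.95 and 6.57 CPM in osteoarthritis. Every control value was more than 10 times every osteoarthritis value. In FPKM, Nkg7 exceeded Prf1 by 65.1 and 243 times in control and by 1.66 and 26.4 times in osteoarthritis. The part of other cell types in the level of Nkg7 was not tested. The log2 fold change of Nkg7 was -4.55 ± 0.53 (95% interval -5.88 to -3.22), a 23.5-fold lower level, and 1.42% of all genes tested had a fold change as low or lower. Its adjusted p was 0.0824 by edgeR's quasi-likelihood test and 1.97e-13 by DESeq2. The quasi-likelihood test called Nkg7 when osteoarthritis replicate 1 or 2 was left out (adjusted p = 0.000586 and 1.27e-05) and not when control replicate 1 or 2 was left out (0.260 and 0.317). Without osteoarthritis replicate 1 it called 6.95% of all genes lower and 8.16% higher, and without replicate 2 5.73% and 4.88%; Nkg7 was the 1 of the T and NK cell genes called in each. Prf1 had 3.24 and 1.84 CPM in control, against 7.26 and 0.605 CPM in osteoarthritis. The 2 osteoarthritis libraries lay on opposite sides of the controls and differed by 12.0 times, from 214 counts (95% Poisson interval 186 to 245) to 14 (7.65 to 23.5). Fitted over all 4 libraries, Prf1 had a log2 fold change of 0.63 ± 1.32 (95% interval -2.69 to 3.95, edgeR quasi-likelihood adjusted p = 0.824), which became -2.08 without osteoarthritis replicate 1. Gzmb had 0 and 19 counts in control, against 5 and 1 counts in osteoarthritis. Only control replicate 2 had more than 5 counts, so no fold change is given. Gzmb belongs to a family of similar granzyme genes, and reads may be split between them.

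**Figure D2:**
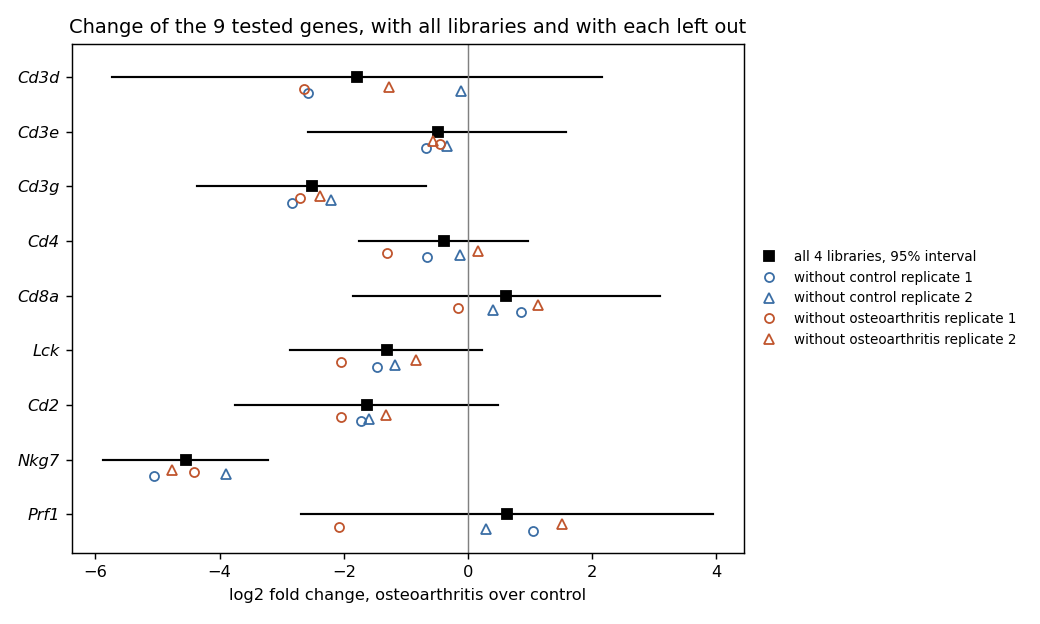
Log2 fold change of the 9 tested genes, osteoarthritis over control, with all 4 libraries (squares, bars are 95% intervals) and with each library left out (open symbols). Nkg7 stays between -5.05 and -3.90 and Cd3g between -2.83 and -2.21 in these fits, while Cd4, Cd8a and Prf1 cross 0 when 1 osteoarthritis library is left out.

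The promoters of 4 of these genes are shown because their values differ in kind: Nkg7 was far lower in osteoarthritis, Cd2 was lower in both osteoarthritis libraries, Cd3e differed little and Prf1 split the osteoarthritis libraries. Each sequence is the 250 bases before the gene's start, 5′ to 3′ on the gene's strand, from RefSeq (assembly GRCr8). Capitals mark matches, on either strand, to short motifs of factor families that act in T and NK cells. The RUNX motif was TGTGGT, the ETS motif AGGAAG, the motif of TCF and LEF factors CTTTGA, and the GATA motif AGATAA.
Nkg7, chr1:102981247-102981496, plus strand: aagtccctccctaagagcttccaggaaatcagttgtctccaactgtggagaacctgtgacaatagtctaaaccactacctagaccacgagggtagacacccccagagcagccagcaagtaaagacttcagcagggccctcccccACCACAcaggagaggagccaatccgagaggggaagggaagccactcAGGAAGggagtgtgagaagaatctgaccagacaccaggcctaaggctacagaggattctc
Cd2, chr2:191412660-191412909, minus strand: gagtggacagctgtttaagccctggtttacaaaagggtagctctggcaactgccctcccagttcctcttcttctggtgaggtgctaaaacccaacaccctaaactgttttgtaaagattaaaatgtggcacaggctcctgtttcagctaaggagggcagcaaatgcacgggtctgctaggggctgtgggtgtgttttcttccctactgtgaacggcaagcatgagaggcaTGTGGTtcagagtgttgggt
Cd3e, chr8:54211771-54212020, minus strand: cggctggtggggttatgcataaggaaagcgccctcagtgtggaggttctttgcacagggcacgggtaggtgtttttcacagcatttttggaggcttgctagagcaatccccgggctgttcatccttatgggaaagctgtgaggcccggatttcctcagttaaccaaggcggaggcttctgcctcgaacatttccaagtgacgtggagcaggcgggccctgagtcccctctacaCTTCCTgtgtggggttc
Prf1, chr20:29788790-29789039, plus strand: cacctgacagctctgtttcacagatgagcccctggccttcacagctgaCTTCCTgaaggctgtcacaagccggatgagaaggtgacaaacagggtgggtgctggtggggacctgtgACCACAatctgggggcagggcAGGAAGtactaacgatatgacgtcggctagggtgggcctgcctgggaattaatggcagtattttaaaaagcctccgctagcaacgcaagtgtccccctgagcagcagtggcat
Nkg7 held 1 RUNX and 1 ETS match, Cd2 held 1 RUNX match, Cd3e held 1 ETS match, and Prf1 held 1 RUNX and 2 ETS matches. Of the 10 genes, 9 had a promoter entry and 7 had a window that ends at the boundary of the gene model. Among these 7, the RUNX motif was found in 5 windows and the ETS motif in 4, and TCF and LEF or GATA motifs in 0. No matches overlapped. Of 33469 promoters in the table, 14.5% held the RUNX, 29.5% the ETS, 13.9% the TCF and LEF and 10.3% the GATA motif in a window of the same length. Nkg7 and Prf1 both held RUNX and ETS matches although their values across the libraries differed. A match is a description of letters and not evidence of binding.

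The order of the genes by FPKM differed between the groups. In control, Nkg7 led at 161 ± 72.8 FPKM (SD, n = 2), followed by Cd4 at 31.3 ± 5.32, Cd3g at 11.6 ± 2.39, Lck at 6.30 ± 0.307, Cd2 at 4.59 ± 0.146 and Cd3e at 2.69 ± 0.187 FPKM. Down to Cd3e, neighbours in this order did not overlap between the 2 libraries. Below it stood Cd3d at 2.21 ± 2.07, Prf1 at 1.28 ± 0.571 and Cd8a at 1.22 ± 0.371 FPKM. Cd3d overlapped with Cd3e and Prf1, and Prf1 with Cd8a. Gzmb was last at 0.233 ± 0.329 FPKM, below Cd8a in both libraries. In osteoarthritis, Cd4 led at 27.8 ± 22.3 FPKM (SD, n = 2), and Nkg7 came next at 7.40 ± 0.101 FPKM. Lck, Prf1, Cd3g, Cd8a, Cd3e and Cd2 followed with means from 2.91 to 1.66 FPKM, and their ranges overlapped from each gene to the next. Cd3d, at 0.758 ± 0.580 FPKM, overlapped with Cd2, and Gzmb was lowest at 0.0839 ± 0.0811 FPKM.

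Ptprc, which encodes the surface protein CD45 of all nucleated blood cells, gave a second scale within each library. Ptprc had 85.7 and 77.9 CPM in control, against 55.7 and 51.5 CPM in osteoarthritis (log2 fold change -0.61 ± 0.29). Relative to Ptprc, Cd3e was at 4.19% and 5.56% in control and 4.75% and 5.79% in osteoarthritis, so its groups overlapped on this scale. Lck was at 14.6% and 18.8% in control and 13.6% and 6.55% in osteoarthritis, and Cd2 at 6.16% and 7.09% and then 3.83% and 2.60%. Both remained lower in osteoarthritis, Lck by a narrow gap in replicate 1. Cd3g was at 8.09% and 13.0% in control and 2.92% and 2.60% in osteoarthritis, and Nkg7 at 101% and 236% and then 8.89% and 12.8%. The separation of Nkg7 and Cd3g between the groups was present on this scale too. Cd8a was higher than in both controls, at 3.04% and 2.36% in control and 8.64% and 3.95% in osteoarthritis. These ratios are descriptions with no test. Ptprc was the pan-leukocyte marker with the smallest difference. The 13 pan-leukocyte genes were all below both controls (26.5% of all genes). Their median log2 fold change was -1.81, so another reference gene would give other ratios.

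**Figure D3:**
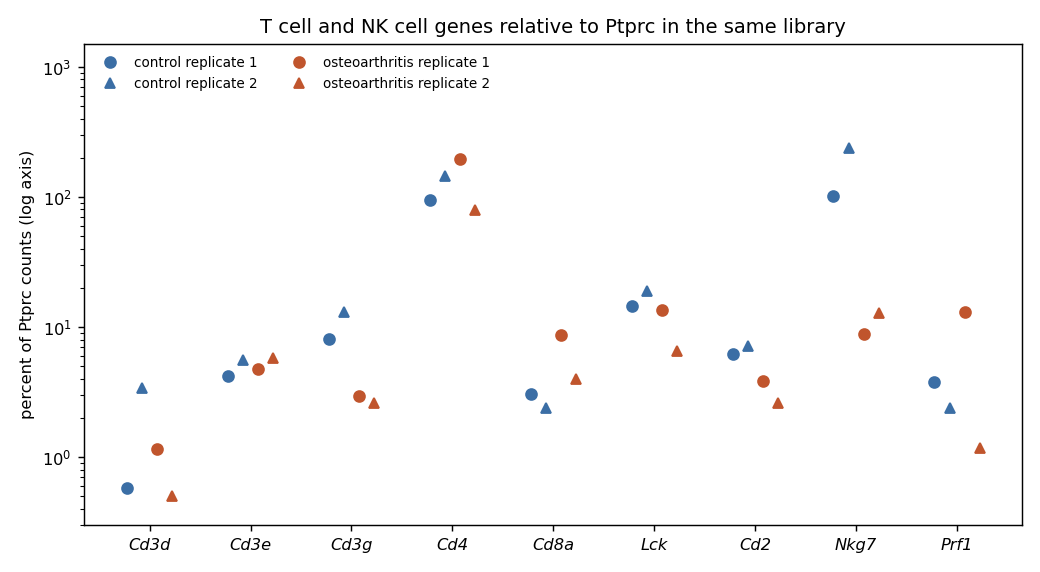
Counts of 9 of the genes as a percent of Ptprc counts in the same library, on a log axis; circles are replicate 1 and triangles replicate 2. Cd3e lies between 4.19% and 5.79% in all 4 libraries, while Nkg7 is at 101% and 236% in control and 8.89% and 12.8% in osteoarthritis; Gzmb is left out because it is at 0 in control replicate 1.

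The 2 osteoarthritis libraries differed in these genes. Replicate 1 was above replicate 2 for 7 of the 9 tested genes, beside 48.4% of all genes tested, and by a median of 1.11 on the log2 scale, beside -0.03 for all genes. The ratio of replicate 1 to replicate 2 was 12.0 for Prf1, 2.67 for Cd4, 2.49 for Cd3d, 2.37 for Cd8a, 2.24 for Lck and 1.6 for Cd2. Cd3g, at 1.22, Cd3e, at 0.887, and Nkg7, at 0.754, were close to even. Some genes of NK and cytotoxic T cells showed the same split, and the following 4 were picked for it after their values were seen. Il2rb, the receptor chain for IL-2 and IL-15, had 6.72 CPM in replicate 1 and 0.864 CPM in replicate 2, and Gzmm, a granzyme, had 4.10 and 0.216 CPM. Cxcr3, a chemokine receptor of activated lymphocytes, had 3.87 and 0.0432 CPM, and Ccl5, a chemokine made by cytotoxic lymphocytes, had 5.53 and 0.605 CPM. In control, Il2rb was at 5.91 and 6.90 CPM, Gzmm at 3.87 and 3.22 CPM, Cxcr3 at 3.52 and 3.84 CPM and Ccl5 at 5.35 and 2.72 CPM, so each control was above osteoarthritis replicate 2. Osteoarthritis replicate 1 exceeded replicate 2 for 9 of 11 tested genes of the NK cell list (median 2.20 on the log2 scale) and for 8 of 12 of the cytotoxic granule list (median 0.42). Ncam1 went the other way, with 31.7 CPM in replicate 1 and 122 CPM in replicate 2, as did Stx11 and Stxbp2. The split was not particular to NK and cytotoxic genes. Replicate 1 exceeded replicate 2 for 8 of 10 T lineage transcription factors (median 1.54) and 11 of 15 receptor signalling genes (0.41). The same held for 7 of 9 cytokine and homing receptor genes (0.49) and 6 of 11 coreceptor and costimulation genes (0.52). Among other cell types, replicate 1 exceeded replicate 2 for 7 of 7 mast cell genes, 2 of 10 B lineage, 0 of 9 neutrophil, 0 of 8 erythroid and 2 of 9 chondrocyte genes. It exceeded replicate 2 for 9 of 12 macrophage and monocyte genes. The part of other cell types in the split of Prf1 and the other genes was not tested.

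By a fixed rule, the genes most like these in pattern were sought: the smallest distance over the 4 libraries between a gene's centred log2 CPM and the median of the 9 tested genes, among 13963 genes with a mean of at least 1 CPM. That median profile stood at 0.48 and 0.82 in control and at -0.13 and -1.22 in osteoarthritis. The nearest was Il4i1, a secreted amino acid oxidase of leukocytes, at a distance of 0.10, with 18.3 and 21.3 CPM in control, against 11.8 and 5.27 CPM in osteoarthritis. The next were Isca2, for iron-sulfur cluster assembly, at 0.12, Atp6v0e2, a proton pump subunit, at 0.15, Rplp1, a ribosomal protein, at 0.16, and Txn2, the mitochondrial thioredoxin, at 0.17. With 4 libraries and this many genes, close matches in pattern carry no more than that description. The 9 genes did not share the profile closely, as Nkg7, centred at 1.68 and 2.77 in control and -2.43 and -2.02 in osteoarthritis, shows.

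Around these genes, 89 further genes of T and NK cells in 6 lists were in the table, and 68 of them were tested. Of the 68, 22 were below both controls, 14 above both and 32 overlapped, beside 26.5% below both and 30% above both among all genes, with a median log2 fold change of -0.32. EdgeR's quasi-likelihood test called 0, with 14 lower and 7 higher at an unadjusted p under 0.05 (11.2% and 12.2% of all genes). DESeq2 called 13 lower and 1 higher (8.26% and 7.24% of all genes). Of the 68, 6 had 0 counts in both controls and passed the filter on low counts only through osteoarthritis. These 6 could enter the test only as higher genes. They are among the 14 above both and the 7 higher, and include Cd247, the 1 higher DESeq2 call. Of the 89, 33 and 27 had 0 counts in control, against 5 and 11 in osteoarthritis. Of all 24005 genes, 38.5% and 34.4% of genes were at 0 in control and 19.7% and 26.2% in osteoarthritis.

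The T cell receptor signalling list held the largest share of lower genes, with 9 of 15 tested genes below both controls (26.5% of all genes), 2 above both (30% of all genes) and a median of -1.36. Grap2, an adaptor that links the receptor to Lcp2, had 29.7 and 27.4 CPM in control, against 1.42 and 2.20 CPM in osteoarthritis, and a log2 fold change of -3.98 ± 0.50 (edgeR quasi-likelihood adjusted p = 0.0824). Sit1, a transmembrane adaptor of lymphocytes, was at -4.46 ± 0.81, Rhoh, a small GTPase of blood cells, at -2.70 ± 0.48 and Lcp2 itself at -1.36 ± 0.30. Several of these adaptors are used by B, mast or other blood cells too. Zap70, the kinase that binds the phosphorylated CD3 and zeta chains, had 1.41 and 2.30 CPM in control, against 2.20 and 1.73 CPM in osteoarthritis, and a log2 fold change of 0.08 ± 1.07. Cd5, a surface inhibitor of T cells, was too low to test, with 32 and 0 counts in control and 4 and 1 in osteoarthritis.

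Among 11 tested coreceptor and costimulation genes, 4 were below both controls and 3 above both, near the 26.5% and 30% of all genes, with a median of -0.93. Cd226, an activating receptor of T and NK cells and platelets, had a log2 fold change of -1.86 ± 0.52 (edgeR quasi-likelihood adjusted p = 0.141). Icos, a costimulator of activated T cells, had 0 and 1.11 CPM in control, against 8.17 and 2.90 CPM in osteoarthritis, so both osteoarthritis libraries were above both controls. Ctla4, the inhibitory counterpart of Cd28, and Slamf1 had 0 counts in both controls and 13 to 15 counts in osteoarthritis. They passed the filter on low counts only through osteoarthritis and are among the 3 above both. Against 3 counts per control library, the observed osteoarthritis means of Ctla4 and Slamf1 were 5.09-fold and 4.54-fold higher. These bounds cover counting error of the controls only. Cd28, the main costimulatory receptor of T cells, had 3.63 and 0.844 CPM in control, against 1.39 and 0.951 CPM in osteoarthritis, with overlapping groups.

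The 10 tested transcription factors of the T lineage had a median of 0.07, with 1 below both controls, 1 above both and 8 overlapping (26.5% below and 30% above among all genes). Lef1 was the lower one, at 13.3 and 18.3 CPM in control, against 5.87 and 1.47 CPM in osteoarthritis (log2 fold change -2.10 ± 0.80). Tox was the higher one, at 2.60 and 1.38 CPM in control, against 8.41 and 2.81 CPM in osteoarthritis (1.49 ± 0.96). Satb1, a chromatin organiser of thymocytes, was at -0.67 ± 0.66. Runx3, a factor of CD8 T cells and NK cells, had 0 and 7.06 CPM in control, against 0.543 and 2.59 CPM in osteoarthritis, so its controls bracketed both osteoarthritis values.

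Of 12 tested genes for cytotoxic granules and their release, 5 were below both controls and 2 above both, beside 26.5% and 30% of all genes, with a median of -0.52. The lowest were genes that many blood cells use for granules of all kinds. Srgn, the proteoglycan that packs granule contents, had 667 and 1029 CPM in control, against 64.9 and 58.6 CPM in osteoarthritis, and a log2 fold change of -3.78 ± 0.48 (edgeR quasi-likelihood adjusted p = 0.0824). Stxbp2, Unc13d and Stx11, which dock and fuse granules, were at -2.39 ± 0.35, -2.28 ± 0.36 and -2.26 ± 0.56. Gzma, a granzyme of cytotoxic T and NK cells, had 0 and 0.844 CPM in control, against 0.984 and 0.130 CPM in osteoarthritis, with overlapping groups.

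The NK cell list had 11 of 19 genes tested, with 2 below both controls, 1 above both, 8 overlapping (26.5% below and 30% above among all genes) and a median of -0.03. In the control libraries 10 and 9 of its 19 genes were at 0, against 1 and 3 in osteoarthritis. Klrd1, the CD94 chain of NK receptors, was the 1 above both. It had 0 counts in both controls and 55 and 10 counts in osteoarthritis, so it passed the filter only through osteoarthritis. Against 3 counts per control library the observed osteoarthritis mean of Klrd1 was 10.4-fold higher, a bound that covers counting error of the controls only. That bound rests mainly on replicate 1: with replicate 2 alone it is 3.92-fold. Other genes of the list had counts in both controls, among them Klrk1 and Ncr3. Klrk1, an activating receptor of NK and cytotoxic T cells picked after its values were seen, had 7.32 and 3.26 CPM in control, against 14.2 and 3.02 CPM in osteoarthritis, so its groups overlapped. Ncr3 and Klrg1, receptors of NK and T cells, were lower than both controls, with log2 fold changes of -2.71 ± 1.42 and -3.39 ± 2.09. They are the 2 below both. In osteoarthritis Ncr3 had 10 and 6 counts and Klrg1 had 10 and 0, so both passed the filter on low counts only through the controls. Ncam1, at 1.34 ± 0.89, is also made by nerve and muscle.

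The 9 tested cytokine and homing receptor genes had a median of 0.75, with 5 above both controls and 1 below both, beside 30% and 26.5% of all genes. Il2ra, the IL-2 receptor chain of activated and regulatory T cells, and Ccr7, the receptor that guides T cells to lymph nodes, had 0 counts in both controls. Il2ra had 33 and 25 counts and Ccr7 had 35 and 11 counts in osteoarthritis. Their observed means were 9.97-fold and 7.53-fold higher than 3 counts per control library, which leaves out counting error of the osteoarthritis counts. With osteoarthritis replicate 2 alone the value for Ccr7 is 4.31-fold. Cxcr6, a receptor of tissue-resident lymphocytes, had 0 and 1 count in control, against 28 and 16 counts in osteoarthritis. Il2ra, Ccr7 and Cxcr6 passed the filter on low counts only through osteoarthritis, so they could enter the test only as higher genes. They are among the 5 above both and raise the median. The part of the zeros in the control libraries in these differences was not tested.

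**Figure D4:**
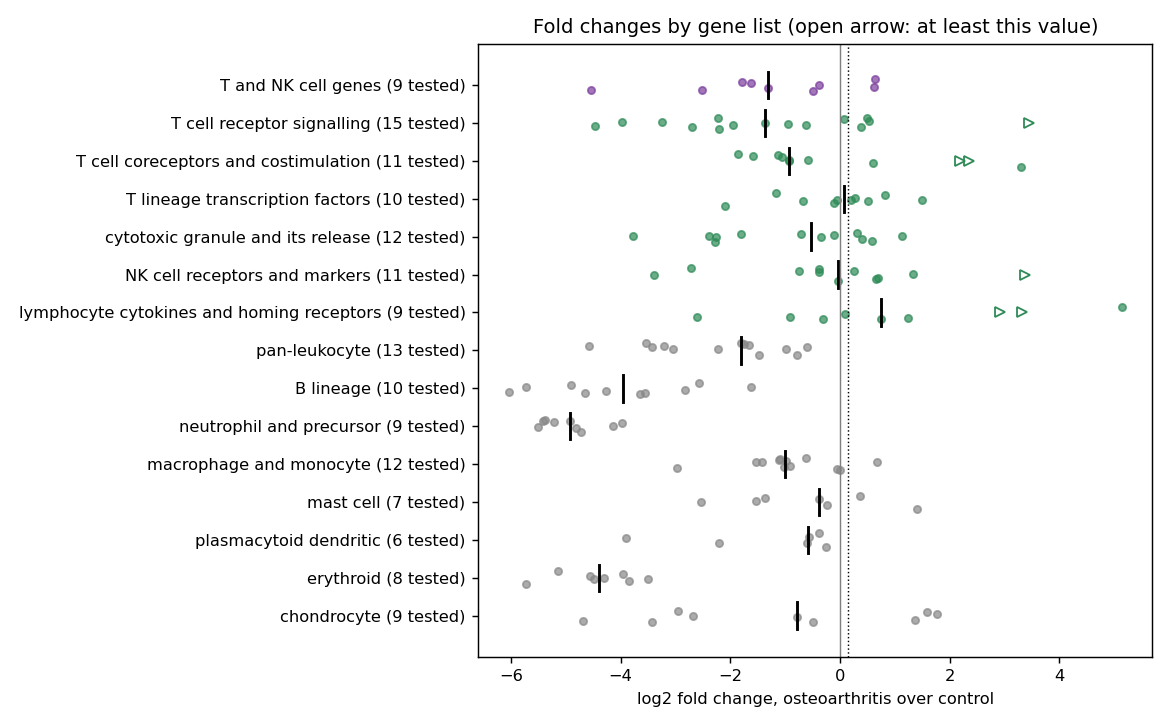
Log2 fold change, osteoarthritis over control, of every tested gene by list: the T and NK cell genes in purple, their pathway lists in green, other cell types in grey, with the list median as a bar and the median of all genes, 0.15, as a dotted line. Open arrows are genes at 0 in both controls, drawn at a lower bound that covers counting error of the controls only. The pan-leukocyte, B lineage, neutrophil, plasmacytoid dendritic and erythroid lists lie wholly below 0. The T and NK cell lists spread to both sides, as do the macrophage, mast cell and chondrocyte lists.

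Markers of the B lineage, of neutrophils and of erythroid cells were lower in osteoarthritis by more than most of the 9 tested genes. The median log2 fold change was -3.95 for 10 B lineage genes, -4.92 for 9 neutrophil and precursor genes and -4.40 for 8 erythroid genes. All of these genes were below both controls, beside 26.5% of all genes tested. The summed level of the B lineage list was 424 and 618 CPM in control, against 28.5 and 36.4 CPM in osteoarthritis. That of the neutrophil list was 7528 and 11862 CPM in control, against 119 and 603 CPM in osteoarthritis. The log2 fold change of Nkg7 lay among those of each of these lists. Those of Cd3g and Cd3d lay within the B lineage list alone, which ran from -6.04 to -1.63. Cd2, at -1.63, stood at its upper end. Those of Lck, Cd3e, Cd4, Cd8a and Prf1 lay above all of these lists. The median was -1 for macrophage and monocyte genes (9 of 12 below both controls), -0.38 for mast cell genes (3 of 7) and -0.58 for plasmacytoid dendritic cell genes (2 of 6). These counts too stand beside the 26.5% of all genes. The part of marrow or other blood cells in the level of Nkg7, Cd3g or the receptor adaptors was not tested.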

How the data were processed

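The authors deposited raw counts per gene in 1 table and FPKM values in another. Per the submitters' processing notes, fastp trimmed and TopHat aligned the reads, with no versions, and the build named is hg38, a human build, although the gene symbols are rat symbols. Not given in the sources used here are the counting tool, annotation and strand setting. Gene lengths were implied from the counts and FPKM values themselves. With 1 such length per gene, each of 67506 deposited FPKM values above 0 matched count and column total within a relative difference of 1e-06. For a gene above 0 in only 1 library this match is automatic. FPKM is therefore no separate measurement.

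Groups follow the label on disease state. Replicate numbers follow the order of deposit and pair nothing. The main test was edgeR's quasi-likelihood F test (edgeR 4.0.16, R 4.3.3), two-sided, of osteoarthritis over control, after filterByExpr with a minimum count of 10 (15282 genes left) and TMM scaling. P-values were adjusted by Benjamini-Hochberg over all genes, with a threshold of 0.05. The standard error is the log2 fold change over the square root of F, and 95% intervals use the test's degrees of freedom. With 2 samples against 2 the smallest p of an exact permutation test is 0.333, and none was run. DESeq2 1.42.0, limma 3.58.1 (voom, and limma-trend on log2 FPKM, pseudocount 1 or 0.1), other scalings and filters and fits without each library were alternatives. The lone sample of a group is then assumed to vary like the other group. Scripts were tested on simulated data. The genes, the 14 lists and the tests were chosen with earlier results of these data known. Named beyond the 10 genes are up to 4 genes per list with the smallest unadjusted p, 7 genes fixed by name and the 5 nearest in pattern. Of the genes so named, 1 is not reported here. Gzmm, Il2rb, Cxcr3, Ccl5, Klrk1 and Acan fall outside that rule and were chosen after their values were seen. For the lists of other cell types, list values are given in place of most single genes. Promoter sequences and names are from RefSeq tables of assembly GRCr8. Its coordinates are not those of the count tables. Poisson intervals are exact. Figures were drawn with matplotlib 3.10.9.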

Additional observations from a re-analysis of the deposited data

How the results depend on the processing

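The counts called by edgeR's quasi-likelihood test rest on its settings. Over all genes 0 were called higher and 0 lower, against 1107 and 1262 with DESeq2, 965 and 978 with the likelihood ratio test and 677 and 751 with no filter on low counts. Leaving out 1 library gave 0 to 1297 higher and 0 to 1105 lower. Of the T and NK cell genes 0 were called higher in every alternative. Called lower were 2 with DESeq2 and with the likelihood ratio test (Nkg7 and Cd3g), 1 with no filter (Nkg7), and 0 to 1 with 1 library left out. The direction of Prf1 reversed without osteoarthritis replicate 1 (-2.08) and with limma-trend on log2 FPKM with a pseudocount of 0.1 (-0.000494), that of Cd8a without osteoarthritis replicate 1 (-0.16) and that of Cd4 without osteoarthritis replicate 2 (0.16). With 1 library left out, the log2 fold change ran from -2.08 to 1.52 for Prf1, from -0.16 to 1.13 for Cd8a and from -1.31 to 0.16 for Cd4. The cause was not tested. The other 121 of 125 gene-by-alternative values kept their direction. The 5 genes below both controls stayed 5 under the other 3 scalings. The median of all genes moved from 0.15 to 0.27 with library size alone and to 0.05 with upper quartile factors, and no T or NK cell gene changed direction with it. Cd3d did not pass the stricter filter. No paired analysis was possible because the labels give no replicate numbers. Depth limits Gzmb and Cd3d, with 0 to 19 and 6 to 69 counts per library.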
